A study of Mus musculus with 24 samples.

Results

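The genes described are 10 members of the prostaglandin pathway, looked up by symbol in the gene tables of mouse retinas after blast injury. They are the receptor gene Ptgfr, the cyclooxygenase genes Ptgs1 and Ptgs2, the prostaglandin E synthase genes Ptges, Ptges2 and Ptges3, the prostaglandin D synthase genes Ptgds and Hpgds, and the receptor genes Ptger2 and Ptger4. The members were chosen by their place in the pathway after the measured Ptgfr levels at 8 days were seen to be higher in injured retinas, so that difference is given as a description and not as a test. Of the 10 genes, 7 had values, among 16387 genes listed at either time: 5 in both tables, Ptgfr at 8 days only and Hpgds at 5 weeks only. Ptgs2, Ptger2 and Ptger4 were absent from both tables.

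The retinas came from male C57BL/6J mice blasted at 13 to 17 weeks of age. Injured (bTBI) mice received an overpressure wave of 20 PSI to the left side of the head under ketamine and xylazine, and sham mice were handled in the same way with no blast. The eye that faced the wave was taken at 8 days, which the study's text calls 1 week, or at 5 weeks, with 6 sham and 6 bTBI mice at each time and 1 retina from each mouse. RNA was extracted with another kit at each time, so kit and time cannot be told apart, and bTBI was compared with sham within each time. Tests of the difference of effects between the times carry the same limit.

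The labels name the cell type as retinal ganglion cells, but the study's methods describe whole retinas. All 6 photoreceptor and bipolar cell markers were listed at 8 days, with a summed level of 43805 to 57847 CPM (gene counts scaled to library size) against 868 to 1915 CPM for the 10 ganglion cell markers. The 24 libraries held between 14301989 and 25158638 reads on listed genes, taking the smallest step between the values of a library as 1 read. At 8 days, lens crystallin levels stood apart in bTBI retinas 5 and 6 and the myelin gene Mbp in bTBI retina 3 (2531 CPM against a bTBI median of 39.0 CPM), so results are given with and without them where that changed a call.

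Prostaglandins are lipid signals made from arachidonic acid, which phospholipases release from membranes. Cyclooxygenases turn it into prostaglandin H2, terminal synthases turn that into prostaglandin E2, D2, F2 alpha or prostacyclin, and each product acts through its own G protein-coupled receptors. In the eye, the receptor of prostaglandin F2 alpha is best known as the target of the drugs that lower eye pressure in glaucoma.

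Short sequences from before the RefSeq start of 5 members are shown first, since they show which motif letters lie there. They come from RefSeq on build GRCm38.p6 and read 5′ to 3′ along the gene's own strand, with motif matches in capitals. The stretch before Ptgfr lies at chr3:151837631-151837778 on the minus strand and stops at the first base that GENCODE M21 places in an exon of the gene. The stretch before Ptgs1 lies at chr2:36230176-36230425 on the plus strand and holds the capitals GAGGAAGT, a motif of PU.1, the myeloid lineage factor. The stretch of Hpgds, at chr6:65144761-65144790 on the minus strand, holds the same 8 letters, but all of its 30 bases lie in an exon of Hpgds in GENCODE M21, which places a start of the gene further upstream. The stretch of Ptges lies at chr2:30903328-30903356 on the minus strand, within the GENCODE span of the gene but outside its exons, and holds the GC box GGGCGG in 2 copies, and the stretch of Ptgds, at chr2:25469767-25469795 on the minus strand, holds TGACTCA, a form of the AP-1 motif TGANTCA, with all of its 29 bases in an exon of Ptgds in GENCODE.
Ptgfr: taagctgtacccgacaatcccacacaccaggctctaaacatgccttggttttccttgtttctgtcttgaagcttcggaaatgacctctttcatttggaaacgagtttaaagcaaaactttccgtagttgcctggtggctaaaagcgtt
Ptgs1: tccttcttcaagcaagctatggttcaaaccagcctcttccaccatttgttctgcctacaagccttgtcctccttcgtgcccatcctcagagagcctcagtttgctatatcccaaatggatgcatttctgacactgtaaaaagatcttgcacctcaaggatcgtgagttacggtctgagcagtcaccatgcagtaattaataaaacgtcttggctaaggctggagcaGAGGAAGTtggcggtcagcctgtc
Hpgds: gcttttaggtgGAGGAAGTggcctctggct
Ptges: cagggtGGGCGGggagtGGGCGGgggtga
Ptgds: gaggccaagccTGACTCAtaaataggggg

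All 10 members matched a RefSeq start, and 8 motifs were searched on both strands in the 250 bases before it. The PU.1 letters GAGGAAGT (ACTTCCTC on the other strand) were present before 2 of the 10 members, Ptgs1 and Hpgds, and in 2.44% of the 32851 windows of the same length. The AP-1 letters TGANTCA were found before Ptgds alone among the members and in 6.75% of all windows. The GC box, GGGCGG or CCGCCC, stood before 5 members (Ptgfr, Ptgs2, Ptges, Ptges3 and Ptger4) and in 32.7% of all windows, and CCAAT or ATTGG before Ptger2 and Ptger4 and in 33.8%. Before Ptgfr its only match, a GC box, lay in the part that GENCODE counts as exon and is not printed. The interferon-stimulated response element, searched as GAAA repeated after any 2 letters (2.98% of all windows), the STAT element TTCNNNGAA (7.02%), the cAMP response element TGACGTCA (1.55%) and the TATA letters TATAAA (12.4%) were not found in the window of any member. These matches describe letters only, and no binding was measured.

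Ptgfr encodes the receptor of prostaglandin F2 alpha, which couples to Gq, and lies at chr3:151796502-151837630 on the minus strand of GRCm38. In the 6 sham retinas at 8 days it was at 0.41, 0.72, 0.54, 0.89, 0.39 and 0.68 CPM. In the 6 bTBI retinas it was at 3.99, 2.12, 2.32, 2.64, 2.68 and 2.14 CPM. Every bTBI retina was therefore above every sham retina, and bTBI retina 1 stood above the other 5. The means were 0.604 ± 0.194 CPM in sham and 2.65 ± 0.701 CPM in bTBI retinas (SD, n = 6 each), a ratio of 4.39. On the log2(CPM + 1) scale, which shrinks differences of low genes, the difference was 1.17 (SE 0.13). These levels rested on 6 to 17 reads in sham and 40 to 61 reads in bTBI libraries.

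The table of 8 days lists only genes with at least 6 of 12 values near or above 1 CPM (the lowest sixth-highest value of any gene was 0.990 CPM). Ptgfr reached 1 CPM in 6 bTBI and 0 sham retinas, so it was listed only through the group in which it was high and had to differ to be listed at all. At 5 weeks, where the same limit stood at 0.998 CPM, Ptgfr was not listed in either arm, and its level there was not analysed. Whether its difference shrank between the times was therefore not tested.

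**Figure D1:**
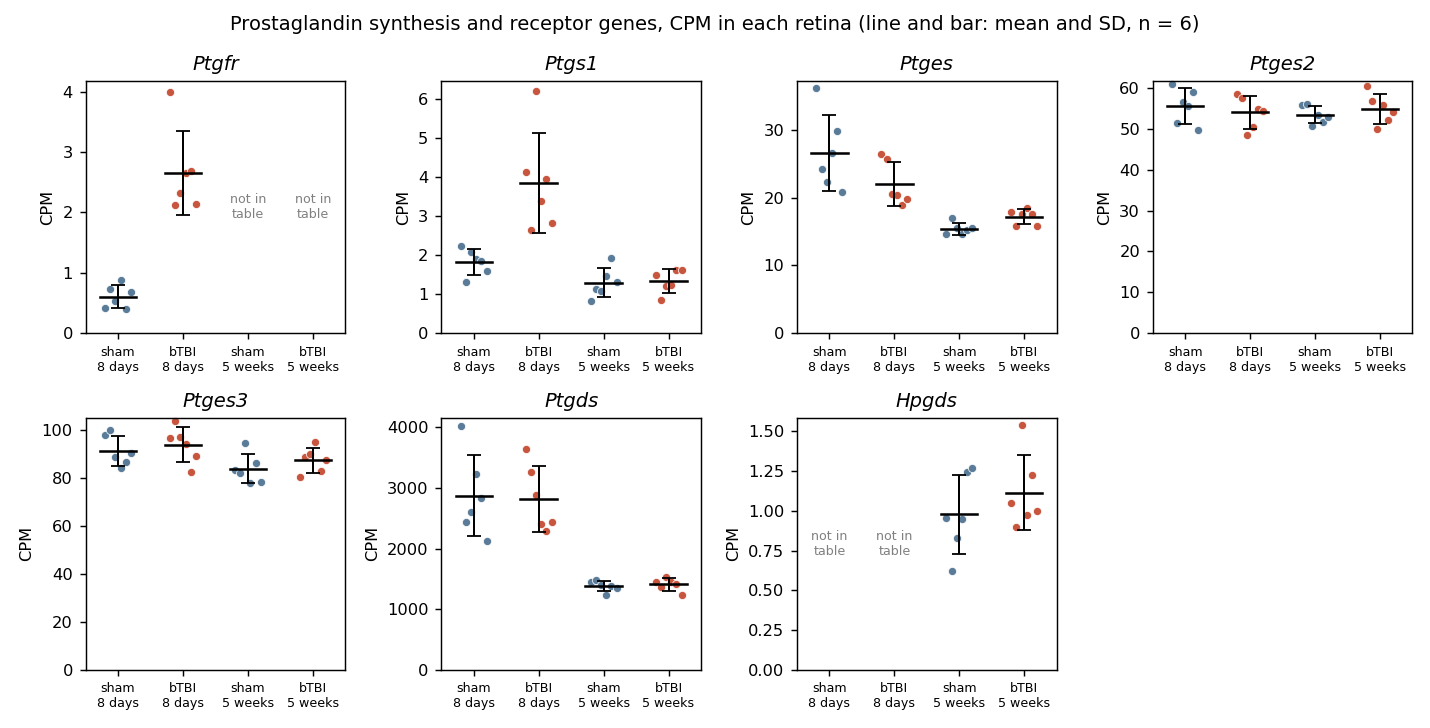
CPM of the 7 members with values, 1 panel each, with 1 point for each retina and the mean and SD of 6 retinas in black. For Ptgfr (2.12 to 3.99 against 0.39 to 0.89 CPM) and Ptgs1 (2.64 to 6.20 against 1.32 to 2.24 CPM) the 8-day bTBI points lie above all sham points, and in the other panels the arms overlap.

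Ptgs1 encodes cyclooxygenase-1, the constitutive cyclooxygenase, which microglia are known to express. It lies at chr2:36230426-36252272 on the plus strand. At 8 days its sham levels were 2.24, 1.32, 2.07, 1.89, 1.86 and 1.60 CPM. Its bTBI levels were 4.12, 2.64, 6.20, 3.39, 3.95 and 2.83 CPM, so the arms did not overlap. The means were 1.83 ± 0.331 and 3.86 ± 1.29 CPM (SD, n = 6 each), and the bTBI mean was 2.11 times the sham mean. The log2(CPM + 1) difference was 0.75 (SE 0.15, 95% interval 0.43 to 1.07), and its adjusted p of 0.00563 (limma, Benjamini-Hochberg over 14922 genes) lay just outside the study's threshold of 0.005. Ptgs1 passed that threshold with a block for the replicate number (adjusted p = 0.00240 by limma) and without bTBI retina 2 (0.00221 by limma). It did not pass when any other single retina was left out (0.00582 to 0.0172 by limma), bTBI retina 3 among them (0.00675).

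At 5 weeks the same gene gave 0.83, 1.14, 1.08, 1.47, 1.93 and 1.32 CPM in sham retinas. The bTBI retinas gave 1.48, 0.85, 1.21, 1.23, 1.61 and 1.63 CPM. The ranges lay almost on top of each other, and the log2 difference was 0.03 (95% interval -0.23 to 0.28, limma adjusted p = 0.970). The Ptgs1 effect at 8 days exceeded that at 5 weeks by 0.72 on the log2 scale (SE 0.20), and this difference of effects did not pass the threshold (limma adjusted p = 0.0932, over 14455 genes), with kit and time not told apart. Ptgs2, which encodes the inducible cyclooxygenase-2, had no value at either time, so the isoforms could not be set side by side.

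Microglial markers moved with Ptgs1 at 8 days. Of 16 markers, 15 were listed and 10 were higher in bTBI retinas by the same test, beside 1.27% of all genes. The median difference of these markers was 1.04 on the log2 scale beside 0.00 over all genes. Their summed level ran from 129 to 199 CPM in sham and from 211 to 559 CPM in bTBI retinas, without overlap. The defining markers Tmem119 (sham 3.28 to 5.91, bTBI 7.08 to 15.9 CPM) and Cx3cr1 (6.93 to 9.90 against 12.9 to 30.04 CPM) did not overlap between the arms either. Within the bTBI arm, retina 3 had both the highest Ptgs1 (6.20 CPM) and the highest microglial sum, and retina 2 had the lowest of both. Retina 3 also held the highest Mbp (2531 CPM), Gfap (737 CPM) and fibroblast marker sum (180 CPM) of that arm. Per 100 CPM of microglial markers, Ptgs1 stood at 0.928 to 1.37 CPM (median 1.13) in sham and 0.963 to 1.25 CPM (median 1.11) in bTBI retinas, ranges that overlapped. The same ratio for Ptgfr was 0.210 to 0.525 CPM (median 0.401) in sham and 0.415 to 1.03 CPM (median 0.842) in bTBI retinas, which overlapped through bTBI retina 3. The ratios were computed after the levels had been seen and were not tested, and the part of microglia in either difference was not tested. In bulk retina, more cells of a type and more RNA per cell cannot be told apart. At 5 weeks 0 of 13 listed microglial markers passed by limma, with 4 under an unadjusted p of 0.05, beside 0.835% and 10.9% of all genes. The marker sums were 78.9 to 90.9 CPM in sham and 85.2 to 103 CPM in bTBI retinas.

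Other marker lists also differed at 8 days. Reactive macroglial markers passed as higher in 6 of 8 cases, beside 1.27% of all genes. Gfap, the intermediate filament of reactive glia, stood at 15.4 to 27.1 CPM in sham and 57.7 to 737 CPM in bTBI retinas. Edn2, another of the 8, stood at 0.407 to 0.911 CPM in sham and 1.93 to 7.44 CPM in bTBI retinas. Like Ptgfr, it was listed only through the bTBI group, so its place in the macroglial count is a description and not a test. Of 10 ganglion cell markers 9 were lower at 8 days, beside 0.985% of all genes. The highest ganglion cell sum of the bTBI arm (1427 CPM) was in retina 2, which had the lowest Ptgs1 and Ptgfr of that arm. Its Ptgfr (2.12 CPM) was close to that of retina 6 (2.14 CPM), which had a ganglion cell sum of 989 CPM. Pericyte and smooth muscle markers had sums of 173 to 195 CPM in sham and 195 to 270 CPM in bTBI retinas, and fibroblast markers 3.87 to 31.4 and 4.52 to 180 CPM. By limma 0 of 7 and 0 of 4 were called, and 2 and 1 had an unadjusted p under 0.05, beside 2.25% and 17.3% of all genes. Of 29 listed markers of leukocytes, Müller glia, photoreceptors and bipolar cells, lens, oligodendrocytes and endothelium, 0 were called at 8 days by limma. An unadjusted p under 0.05 was found for 8, beside 17.3% of all genes. Of these 8, 4 were among the 6 Müller glia markers, whose log2 differences ran from -0.23 to 0.29. The Müller glia sums were 6553 to 7418 CPM in sham and 6198 to 7039 CPM in bTBI retinas. Only 1 of 10 leukocyte and 2 of 6 oligodendrocyte markers were listed. The median log2 difference was 1.96 for lens and 1.68 for oligodendrocyte markers, with bTBI sums of up to 6898 and 3342 CPM, so the absence of calls does not show these lists unchanged. The parts of these cells in the members' values were not tested.

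**Figure D2:**
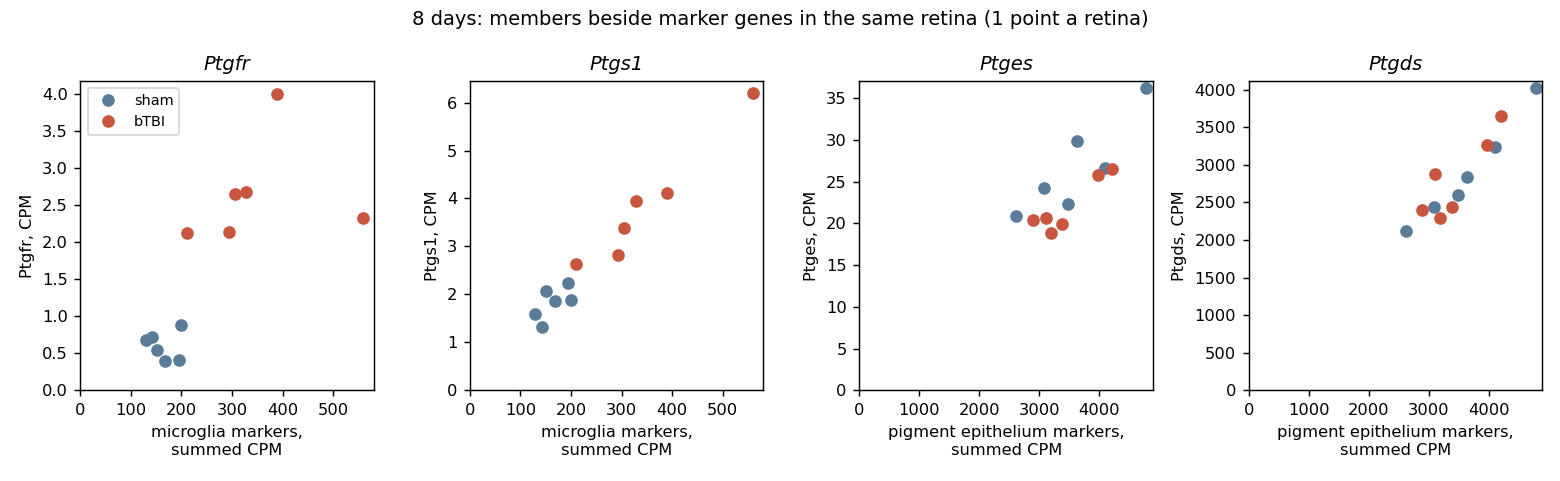
Each point is 1 retina at 8 days, with the CPM of a member on the vertical axis against the summed CPM of microglial markers (Ptgfr, Ptgs1) or pigment epithelium markers (Ptges, Ptgds) in the same retina on the horizontal axis. The bTBI points of Ptgs1 lie at higher values of both measures than the sham points, whereas sham and bTBI points of Ptges and Ptgds are mixed and follow the pigment epithelium sum.

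The prostaglandin E synthase genes were listed at both times, and none passed the threshold. Ptges encodes the inducible microsomal synthase and lies at chr2:30889471-30929863 on the minus strand. At 8 days it gave 36.2, 24.2, 22.4, 26.6, 29.8 and 20.9 CPM in sham retinas. The bTBI retinas gave 26.5, 25.8, 20.6, 20.4, 18.9 and 19.9 CPM, so the arms overlapped, with sham retina 1 highest of all. The log2 difference was -0.26 (SE 0.12, 95% interval -0.51 to 0.00, limma adjusted p = 0.295). At 5 weeks the Ptges levels were 14.7, 17.1, 15.6, 14.6, 15.3 and 15.5 CPM in sham retinas. In bTBI retinas they were 17.9, 15.9, 17.6, 18.4, 17.6 and 15.9 CPM, and 4 of the 6 bTBI values lay above all sham values. That difference was 0.15 (95% interval 0.02 to 0.27, limma adjusted p = 0.320), and the effects at the 2 times, with kit and time not told apart, differed by -0.40 without passing (limma adjusted p = 0.247).

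Ptges2 encodes a second membrane-associated synthase and lies at chr2:32395896-32405772 on the plus strand. It stood at 49.8 to 61.2 CPM (median 56.1) in sham and 48.5 to 58.6 CPM (median 54.7) in bTBI retinas at 8 days, and at 50.9 to 56.1 (median 53.3) and 50.0 to 60.5 CPM (median 55.1) at 5 weeks. Its log2 differences were -0.04 (95% interval -0.17 to 0.09) and 0.04 (-0.06 to 0.13). Ptges3 encodes the cytosolic synthase, better known as p23, a partner of the chaperone Hsp90, and lies at chr10:128058954-128077272 on the plus strand. It stood at 84.1 to 100.1 CPM in sham and 82.6 to 104 CPM in bTBI retinas at 8 days, and at 78.2 to 94.6 and 80.7 to 95.1 CPM at 5 weeks. Its log2 differences were 0.04 (95% interval -0.09 to 0.17) and 0.06 (-0.04 to 0.16). The intervals of both genes lay within 0.18 of 0 at either time. A pseudogene copy, Ptges3-ps, was listed at 9.04 ± 0.768 CPM in sham retinas at 8 days, so some reads may have been split between it and Ptges3.

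The prostaglandin D synthase genes sat at opposite ends of the range. Ptgds encodes the lipocalin-type synthase, a secreted protein that also carries retinoids, and lies at chr2:25466709-25470046 on the minus strand. At 8 days it gave 4020, 2443, 2605, 3233, 2833 and 2118 CPM in sham retinas. The bTBI retinas gave 3643, 3264, 2884, 2397, 2287 and 2443 CPM. The arms overlapped throughout, with a log2 difference of -0.02 (SE 0.15, 95% interval -0.33 to 0.29, limma adjusted p = 0.973). At 5 weeks Ptgds stood at 1229 to 1487 CPM (median 1387) in sham and 1228 to 1538 CPM (median 1429) in bTBI retinas, with a difference of 0.03 (95% interval -0.07 to 0.13). The sham ranges of the 2 times do not overlap, but they come from separate tables, and kit and time cannot be told apart.

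Pigment epithelium markers followed Ptgds and Ptges between retinas. Of 8 such markers 7 were listed, and 0 passed at either time by limma (0 also at an unadjusted p under 0.05). Over all genes 2.25% passed at 8 days and 0.835% at 5 weeks. Sham retina 1 at 8 days had the highest Ptgds, the highest Ptges and the highest marker sum of all 24 retinas (4788 CPM), and sham retina 6 had the lowest Ptgds and the lowest sum (2620 CPM) of that time. The spread of these markers was wider at 8 days (2620 to 4788 CPM) than at 5 weeks (1666 to 2221 CPM), as was that of Ptgds. Their part in the spread of either gene was not tested.

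Hpgds encodes the glutathione-dependent, hematopoietic synthase known from mast cells and microglia, and lies at chr6:65117293-65144908 on the minus strand. It was listed at 5 weeks only, at 0.95, 0.62, 0.83, 0.95, 1.24 and 1.27 CPM in sham retinas. The bTBI retinas gave 1.05, 0.90, 1.54, 0.97, 1.22 and 1.00 CPM. The arms overlapped, and the log2 difference was 0.10 (95% interval -0.14 to 0.33, limma adjusted p = 0.851). Only 6 of the 12 values reached 1 CPM, and each value rested on 12 to 29 reads. Of 6 mast cell markers 0 were listed at either time. Ptger2 and Ptger4, which encode the Gs-coupled E2 receptors EP2 and EP4, had no value.

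**Figure D3:**
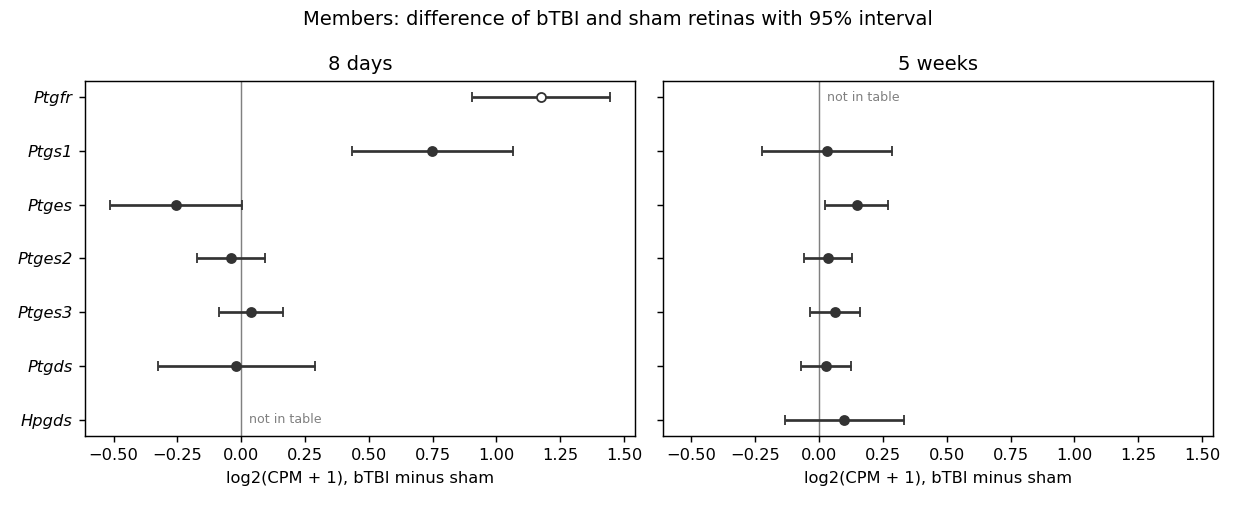
Difference of bTBI and sham retinas on the log2(CPM + 1) scale for each listed member at 8 days (left) and 5 weeks (right), with unadjusted 95% intervals from limma. Ptgfr (open circle, 1.17, described only because it chose the set) and Ptgs1 (0.75) lie to the right of 0 at 8 days, and at 5 weeks all 6 members lie within 0.15 of 0.

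By the limma test 0 of the 5 tested members passed at 8 days, where 2.25% of 14922 genes passed (1.27% as higher and 0.985% as lower). At an unadjusted p under 0.05 the count was 1, Ptgs1, beside 17.3% of all genes. Ptgs1 was also the only one of the 5 whose arms did not overlap, which held in the higher direction for 1.59% of all genes and in the lower for 2.25%. At a threshold of 0.05 Ptgs1 passed, beside 6.08% of all genes. At 5 weeks 0 of 6 members passed by limma, beside 0.835% of 15920 genes (0.0126% as higher and 0.823% as lower), and 1 (Ptges) had an unadjusted p under 0.05, beside 10.9% of genes. The arms of all 6 members overlapped, where 0.239% of genes lay apart as higher and 1.75% as lower, and 0 of 6 passed at 0.05 by limma, beside 2.05% of genes. For the difference of effects 0 of 5 passed by limma beside 0.104% of 14455 genes, and 2 (Ptgs1 and Ptges) had an unadjusted p under 0.05 beside 8.50% of genes. At 0.05 it was 0.768% of genes and 0 of 5 members. The median log2 difference of the tested members was -0.02 at 8 days and 0.05 at 5 weeks, with 0.00 over all genes at each time.

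Divided by the length of the longest GENCODE M21 transcript, the sham levels at 8 days fell in the order Ptgds (2167 ± 508 CPM per kilobase), Ptges3 (45.7 ± 3.16), Ptges2 (11.2 ± 0.873), Ptges (7.31 ± 1.54), Ptgs1 (0.638 ± 0.115) and Ptgfr (0.0912 ± 0.0292), each the mean and SD of 6 retinas. No 2 neighbours in that order overlapped, and the order in bTBI retinas was the same, with Ptgs1 at 1.34 ± 0.451 and Ptgfr at 0.400 ± 0.106 CPM per kilobase. At 5 weeks the order was Ptgds (1041 ± 66.8 CPM per kilobase in sham), Ptges3 (42.0 ± 3.05), Ptges2 (10.8 ± 0.429), Ptges (4.23 ± 0.246), Ptgs1 (0.452 ± 0.132) and Hpgds (0.251 ± 0.0635). There the neighbours Ptgs1 and Hpgds overlapped in both arms. The longest Hpgds transcript is a 1-exon model of 3891 bases, and with the union of all exons its level was 0.152 CPM per kilobase. The ranks were the same with that length for every member in each group.

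**Figure D4:**
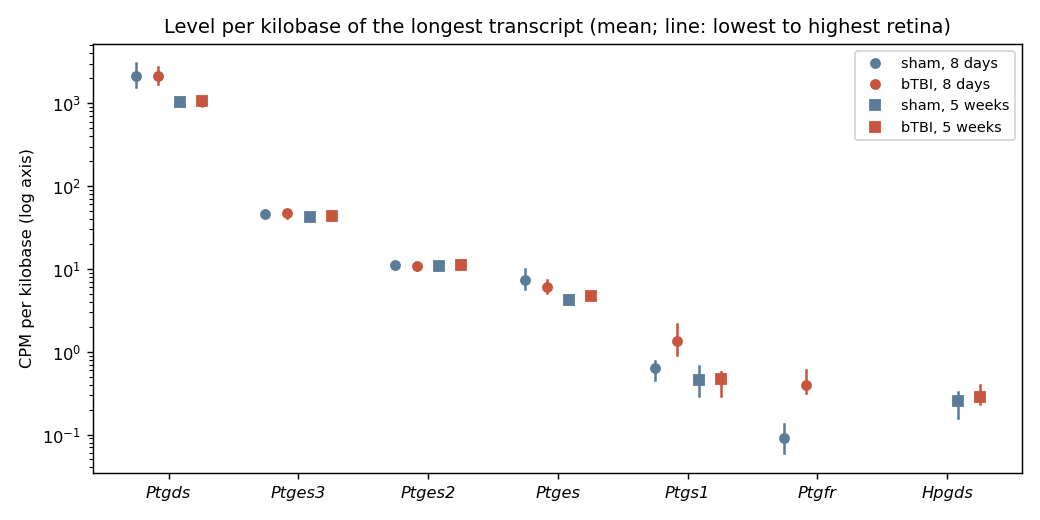
Level of each listed member in CPM per kilobase of its longest transcript on a log axis, as the mean of 6 retinas with a line from the lowest to the highest retina, for each arm and time. Ptgds lies more than 20-fold above the next gene in every group, and Ptgfr is the lowest at 8 days.

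The genes whose levels deviated most like each member's were found from log2(CPM + 1) after each group's mean was subtracted, and all points share library and depth with each other. Over the 12 retinas of 8 days Ptgfr was followed most closely by Gm5518 (r = 0.93, rho = 0.85), Junb, an immediate early gene of the AP-1 family (r = 0.86, rho = 0.89), Mrps18b, Gm5855 and Pdcd7. For Ptgfr bTBI retina 1 stood apart (3.99 CPM) and sham levels rested on few reads, and the weight of either in these r was not tested. Over all 24 retinas Ptgs1 was followed by Flnc (r = 0.76, rho = 0.72), Lgi4 (r = 0.74, rho = 0.73), Gatm (r = 0.73, rho = 0.55), and Siglech and Cmtm5 (r = 0.71 each, rho = 0.63 and 0.65). The 8-day bTBI retina 3 held the highest Ptgs1 (6.20 CPM) and Mbp (2531 CPM), and its weight in these r was not tested. Ptges was followed by Slc6a20a (r = 0.93, rho = 0.91), Car14, Pon1, Cpxm2 and Ndufa3. Ptgds was followed by Rdh5, a retinol dehydrogenase of the visual cycle (r = 0.96, rho = 0.90), Pon1 (r = 0.96), Rgr, an opsin of pigment epithelium and Müller glia (r = 0.96, rho = 0.89), and Atp5h. Pon1 stood in the lists of both Ptges and Ptgds. Ptges3 was followed by Dnaja1, a co-chaperone (r = 0.88, rho = 0.79), Rdh11, Zhx1, Cacybp and Zfp868, and Ptges2 by Anapc11 (r = 0.81, rho = 0.82), Trmt11, Cyc1 and Nt5m. These values describe likeness among 14859 genes at 8 days or 14392 genes at both times, and no p was computed.

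The wider pathway was read from a list of 27 other prostanoid genes, of which 19 were listed at each time. By limma 0 of 19 passed at 8 days and 0 of 19 at 5 weeks, with median log2 differences of -0.05 and 0.02. At an unadjusted p under 0.05 there were 2 genes (Dagla, Ptgir) at 8 days and 5 genes (Pla2g6, Dagla, Ptgir, Ptgfrn, Hpgd) at 5 weeks, beside 17.3% and 10.9% of all genes, and 2.25% and 0.835% of all genes passed. Ptgir is in both counts, although at each time its listing leaned on the group in which it was higher. The cytosolic phospholipase gene Pla2g4a, which supplies arachidonic acid, differed by 0.30 at 8 days (limma adjusted p = 0.29) and the prostacyclin synthase gene Ptgis by -0.03 (limma adjusted p = 0.94).

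Ptgir encodes the prostacyclin receptor and stood at 1.06 to 1.70 CPM (median 1.51) in sham and 0.689 to 1.23 CPM (median 0.868) in bTBI retinas at 8 days, a log2 difference of -0.38 (95% interval -0.60 to -0.16, limma adjusted p = 0.0393). All 6 sham values lay above 1 CPM and the bTBI median below it. Ptgir was therefore listed at 8 days through the group in which it was high, and its difference there is a description and not a test. At 5 weeks it stood at 0.417 to 1.75 CPM (median 0.737) in sham and 0.967 to 2.19 CPM (median 1.37) in bTBI retinas. The difference was 0.35 (limma adjusted p = 0.406). There the sham median lay below 1 CPM and the bTBI median above it, so its listing leaned on the bTBI group. The difference of its effects was -0.73 (95% interval -1.14 to -0.32, limma adjusted p = 0.0932) and did not pass. It carries the limit of listing at both times, through the sham group at 8 days and mostly the bTBI group at 5 weeks. The difference of effects is therefore a description too, with kit and time not told apart. Ptgfrn, a membrane protein that lowers ligand binding by the F receptor, differed by -0.07 at 8 days and by -0.34 at 5 weeks (95% interval -0.50 to -0.17, limma adjusted p = 0.0284), where sham retinas held 16.2 to 20.3 CPM and bTBI retinas 11.4 to 16.6 CPM. Ptgr1, a prostaglandin reductase, was listed at 8 days only and differed by 0.31 (limma adjusted p = 0.365).

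Of 10 leukotriene genes, which use the same arachidonic acid, only Alox5ap and Lta4h were listed at each time, and by limma 0 of 2 passed, at either time, with 0 under an unadjusted p of 0.05. Their differences were 0.13 and 0.02 at 8 days and 0.21 and 0.03 at 5 weeks. Of 8 G protein and phospholipase C genes that act below these receptors 7 were listed. At 8 days 0 of 7 passed by limma, with 4 under an unadjusted p of 0.05 (Plcb1, Plcb3, Plcb4 and Gnal), and at 5 weeks 1 of 7, Gnal, passed as lower, beside 2 genes (Plcb3 and Gnal) under an unadjusted p of 0.05. Over all genes 2.25% passed and 17.3% had an unadjusted p under 0.05 at 8 days, and 0.835% and 10.9% at 5 weeks. Gnal encodes the G alpha subunit olf, a relative of Gs. It held 38.9 to 43.8 CPM in sham and 31.8 to 35.8 CPM in bTBI retinas at 5 weeks, a difference of -0.28 (95% interval -0.37 to -0.18, limma adjusted p = 0.000707), and this call was lost in a single fit of all 24 retinas (limma adjusted p = 0.0573). At 8 days it held 41.8 to 47.7 CPM in sham retinas and a median of 30.7 CPM, with a highest value of 46.1 CPM, in bTBI retinas, a difference of -0.47 (limma adjusted p = 0.00563), and it passed without bTBI retina 2, with a robust prior (limma adjusted p = 0.00417), with the replicate block (0.00385) and in the single fit (5.7e-05). Plcb1, a phospholipase C below Gq, differed by -0.43 at 8 days (limma adjusted p = 0.0335) and by -0.15 at 5 weeks, and Gnas, which encodes Gs alpha, by -0.11 and -0.18. All 10 ganglion cell markers were lower at 5 weeks, where 0.823% of all genes were. They stand beside the lower Gnal, and their part in it was not tested.

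**Figure D5:**
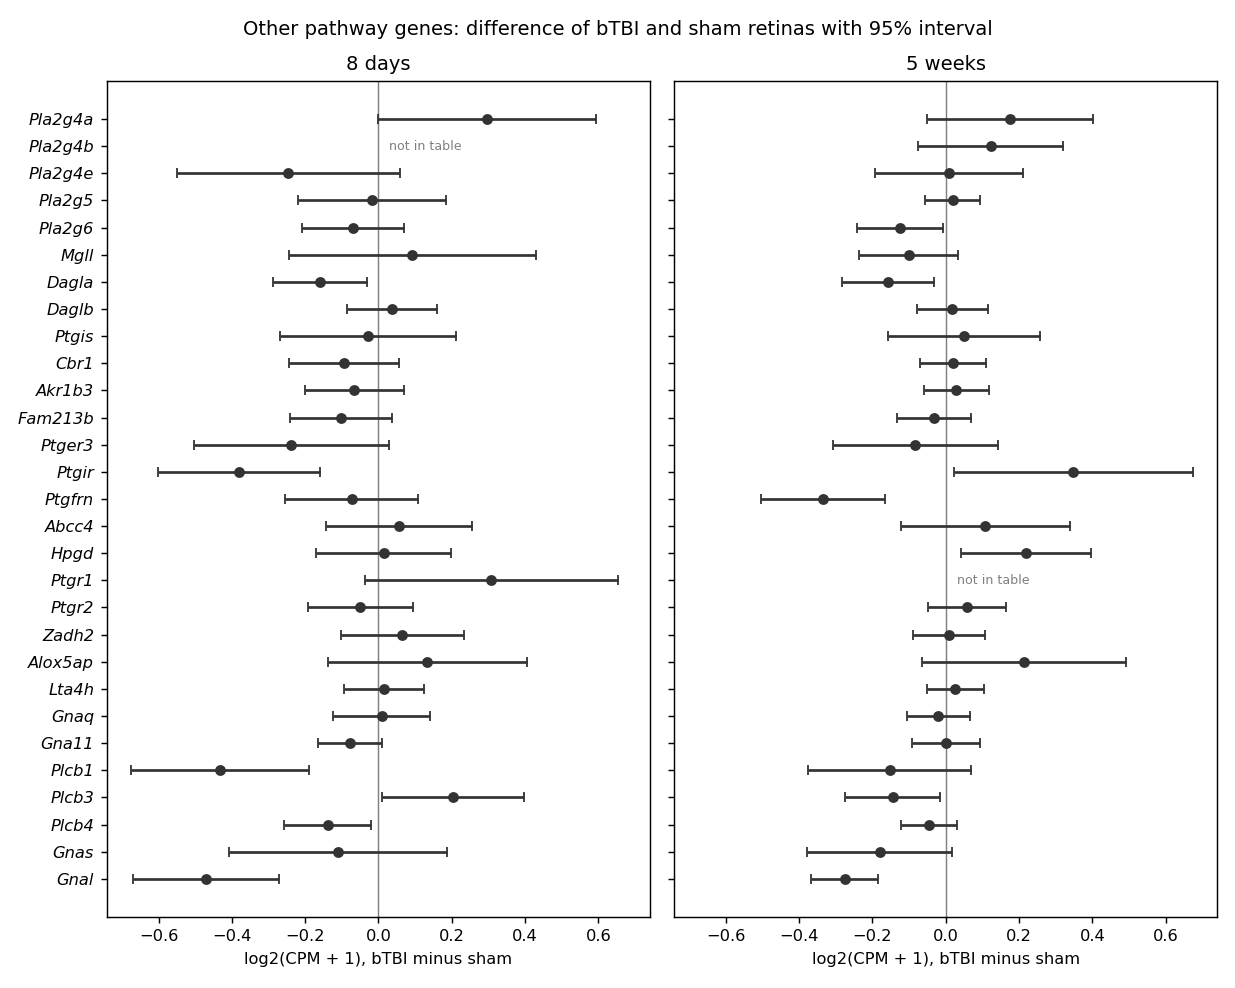
Difference of bTBI and sham retinas on the log2(CPM + 1) scale for the listed prostanoid, leukotriene and G protein genes outside the 10 members, at 8 days (left) and 5 weeks (right), with unadjusted 95% intervals from limma. Most points lie near 0, Ptgir lies at -0.38 at 8 days and 0.35 at 5 weeks, and Gnal lies below 0 at both times (-0.47 and -0.28).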

How the data were processed

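Poly(A) RNA of 24 retinas was sequenced from stranded libraries as 75 bp read pairs. Per the study's methods the authors mapped reads to GRCm38 with STAR and counted them per gene with featureCounts; the strand setting is not given in the sources used here. The deposited values are a signal, gene counts divided by effective library size (CPM), in 1 table per time. All values of a library were whole multiples of its smallest step, within 0.01 of a step. This gave 14301989 to 25158638 reads on listed genes per library. Such depth makes values under 1 CPM rest on few reads, and counting error only is covered by read numbers. Symbols were matched by Ensembl ID for 14907 of 14922 and 15902 of 15920 genes. Fam213b and Zadh2 were taken under their RefSeq synonyms Prxl2b and Ptgr3.

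Groups came from the sample titles. Each table was tested with limma 3.58.1 (R 4.3.3) on log2(CPM + 1) with a trended prior and Benjamini-Hochberg adjustment over all genes, at the study's threshold of 0.005; the difference of effects was fitted on 24 retinas over 14455 shared genes. Scripts were tested on simulated data. The p-values measure the spread between single retinas of separate mice. Positions and lengths came from GENCODE M21. The members and all gene lists were chosen with earlier results of these data known. Named genes were the 10 members, every listed gene of the 3 pathway lists past the threshold, the 2 largest differences per list and time with a mean of at least 1 CPM, a few cell markers, and, of the 5 genes most like each member, all but some that are not reported here; Pla2g4a, Ptgis, Dagla, Pla2g6, Hpgd, Plcb3 and Plcb4 were named beside counts after their values were seen. Alternatives were scaling, a filter, a pseudocount of 0.1, the prior, a replicate block, a single fit of all retinas, the threshold, transcript length and leaving out retinas.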

Additional observations from a re-analysis of the deposited data

Results flagged for a closer look

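Over all listed members and pathway genes, in 9 of 136 groups of 6 retinas (6.62%) 1 retina stood apart from the other 5, where chance alone flags about 5% of groups. The measure is the gap to the nearest retina as a share of the group's range (Dixon's ratio at the 95% level). Ptgfr stood apart in bTBI retina 1 at 8 days (3.99 CPM, nearest 2.68, share 0.703), and without that retina its log2 difference was 1.08. Gnal stood apart in bTBI retina 2 at 8 days (46.1 CPM, nearest 32.3, share 0.763), the retina with the highest ganglion cell markers of its arm. Ptgfrn was high in sham retina 4 at 8 days (34.7 CPM, nearest 30.4, share 0.642). Gnas was high in sham retina 1 at 8 days (14.3 CPM, nearest 12.1, share 0.686). Ptgr1 was low in sham retina 6 at 8 days (0.969 CPM, nearest 1.60, share 0.694). Plcb1 was low in bTBI retina 1 at 5 weeks (10.2 CPM, nearest 16.2, share 0.697). At 5 weeks Mgll stood apart among sham retinas (109.7 to 151 CPM, share 0.801), Ptgr2 among bTBI retinas (30.2 to 34.4 CPM, share 0.703) and Pla2g4a among sham retinas (1.499 to 2.39 CPM, share 0.628).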

How the results depend on the processing

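Of the tested members only Ptgs1 at 8 days changed its side of the threshold. The count of members past it rose from 0 to 1 (Ptgs1) with a pseudocount of 0.1, a robust prior, the replicate block, a single fit of all 24 retinas and a threshold of 0.05. Over the fits that left out 1 retina it was 0 to 1, with 1 only without bTBI retina 2, and the adjusted p of Ptgs1 by limma ran from 0.00221 to 0.0172. The difference of Ptgfr was 1.98 with a pseudocount of 0.1, 2.13 as the log2 ratio of mean CPM, and 1.08 to 1.22 over fits without 1 retina.

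The genes called at 8 days numbered 336 and became 685 in a single fit, 907 at a threshold of 0.05, and 112 without bTBI retinas 5 and 6. Without 1 retina they ran from 189 to 486, and fell by over 1.5 times without sham retina 2 (189), 3 (206) or 5 (204) and without bTBI retina 5 (204) or 6 (217). At 5 weeks 133 genes became 56 without a trended prior, 75 in a single fit, 326 at 0.05, and 88 to 163 without 1 retina, lowest without sham retina 2. For the difference of effects 15 genes became 111 at 0.05 and 9 to 111 without 1 retina; without sham retina 4 or bTBI retina 2 of 8 days they were 31 and 111, without bTBI retina 1 of 5 weeks 43, and without bTBI retina 3 or 5 of 5 weeks 9. Members past the threshold stayed at 0 at 5 weeks and for the difference of effects in all of these. The causes were not tested.

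Small differences changed sign. Without bTBI retinas 5 and 6, Ptgds at 8 days was 0.098 and Lta4h -0.0051. Without 1 retina, Ptgds at 8 days ran from -0.100 to 0.0845, Lta4h from -0.0093 to 0.0413, Ptgs1 at 5 weeks from -0.032 to 0.103 and Ptgds from -0.0068 to 0.0652. In the difference of effects Ptges3 ran from -0.0566 to 0.0145, Ptgds from -0.127 to 0.0581, Gnas from -0.0547 to 0.147 and Lta4h from -0.0357 to 0.015. Of these, the further values on the other side of 0 were 0.0047 and 0.0020 for Ptges3, 0.0113 for Ptgds, -0.00095 for Gnas, and 0.0114, 0.0025 and 0.0024 for Lta4h.

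With a block for the replicate number, Ptgs1 (limma adjusted p = 0.00240) and Gnal (0.00385) at 8 days passed, no other named gene changed its call, and 293, 134 and 14 genes were called at 8 days, at 5 weeks and for the difference. Retinas with the same number deviated with r of -0.25 to 0.54 at 8 days and -0.11 to 0.15 at 5 weeks, so the numbers were not taken to pair them. Gnal at 5 weeks did not pass in a single fit (adjusted p = 0.0573 by limma). Count models on reads recovered from the steps (edgeR and DESeq2) were planned and not run, because most libraries list no gene at 1 read, against which recovered reads would be checked. Values near 1 CPM rest on few reads and limit Ptgfr, Ptgs1, Hpgds and Ptgir most.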
